A study of Homo sapiens with 12 samples.

Results

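The genes described here encode the subunits of integrins and laminins. They are the protein-coding genes whose symbols name an integrin alpha chain, an integrin beta chain from ITGB1 to ITGB8, or a laminin alpha, beta or gamma chain. The rule gave 38 of the 58302 genes in the count table, namely 18 integrin alpha, 8 integrin beta and 12 laminin genes. An integrin is a cell-surface receptor made of an alpha and a beta chain, which together decide which matrix protein or cell-surface ligand is bound. A laminin is a secreted trimer of an alpha, a beta and a gamma chain that builds basement membranes and is itself bound by integrins that hold ITGA3, ITGA6 or ITGA7. In the prostate, basal epithelial cells rest on a laminin that holds LAMA3 and LAMB3, which the receptor formed by ITGA6 and ITGB4 anchors at hemidesmosomes.

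Polyadenylated RNA was sequenced from PC3 and 22Rv1, both established human prostate cancer lines. A lentivirus brought into each line mutated ETV4 with an IRES and eGFP (ETV4AAA), wild-type ETV4 with an IRES and eGFP (ETV4WT), or an IRES and eGFP alone (eGFP), in an MSCV backbone. The controls therefore also carry a virus and eGFP, and every library comes from DAPI-negative, eGFP-positive cells sorted after 1 week of overexpression. ETV4 is an ETS-family transcription factor of the PEA3 group, and no source used here names the residues changed in ETV4AAA. There were 2 libraries in each of 6 groups (n = 2). Whether the replicates came from separate cultures is not stated in the labels, and the p-values therefore cover only the spread between these samples, which may be technical.

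The 12 libraries hold 41698738 to 51199207 counts. Levels are given as CPM, counts scaled to library size. KLK3, which encodes prostate-specific antigen and marks 22Rv1 among these lines, stood between 19.8 and 53.3 CPM in 22Rv1 and was at 0 in every PC3 library. ETV4 stood at 389.9 and 281.1 CPM in ETV4AAA, 385.1 and 484.5 CPM in ETV4WT and 31.2 and 24.9 CPM in eGFP libraries of 22Rv1. In PC3 it stood at 222.6 and 109.4 CPM in the libraries labelled ETV4AAA, 214.6 and 111.6 CPM in those labelled ETV4WT, and 116.4 and 125.7 CPM in eGFP libraries. Both construct groups of PC3 were thus above eGFP in replicate 1 and not in replicate 2, and results from PC3 are also given without both replicate 2 construct libraries. The counts do not separate introduced from endogenous ETV4 transcripts.

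A test was possible for 35 of the 38 genes. ITGAD, ITGAM and ITGAX, alpha chains of leukocyte integrins, had at most 9 counts in any library and did not pass the filter on low counts. Below, a gene rose or fell where its Benjamini-Hochberg adjusted p in edgeR's quasi-likelihood test was under 0.05 over the 23238 genes tested. Every gene called in a comparison of 2 groups also had non-overlapping libraries. So did many that were not called, such as ITGA1 and LAMA2 in PC3 ETV4WT against eGFP. The share of non-overlapping genes over all genes tested was not counted, so non-overlap adds no support to a call. Log2 changes are given ± SE.

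**Figure D1:**
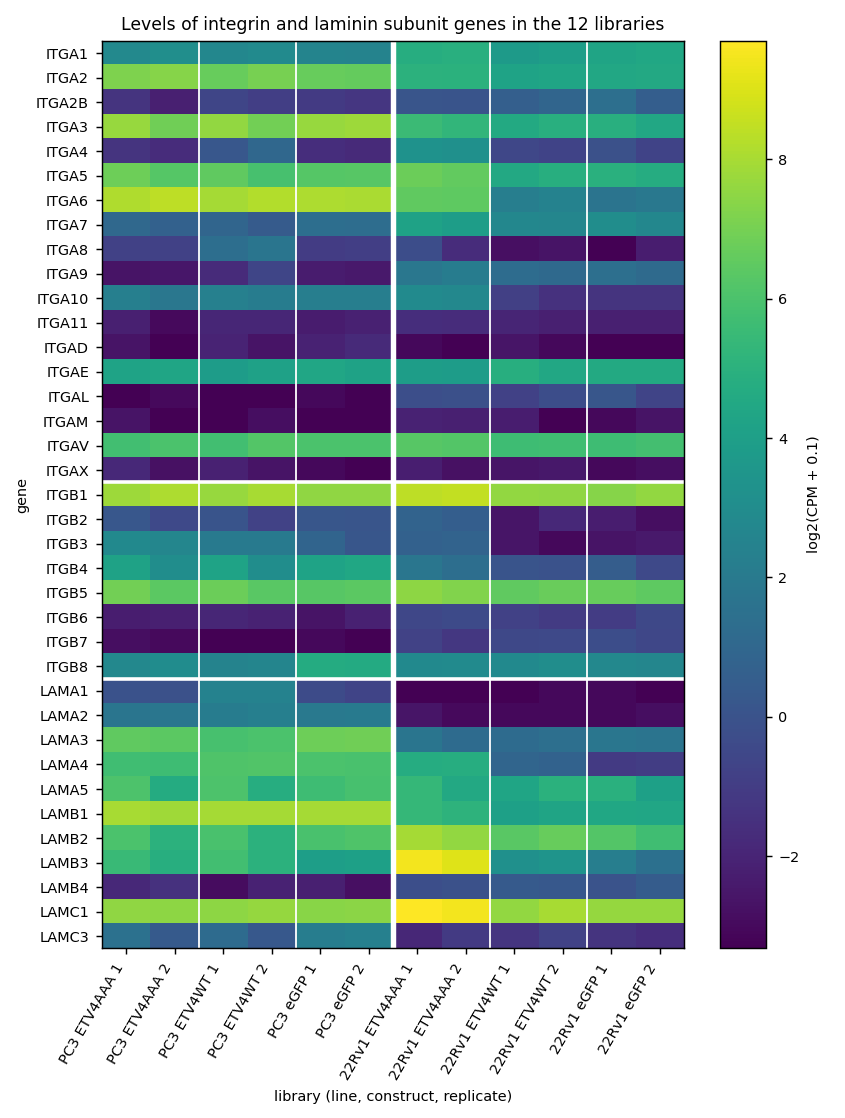
Levels of the subunit genes (rows, integrin alpha, integrin beta and laminin from top to bottom) in the 12 libraries (columns) as log2(CPM + 0.1). LAMB3 and LAMC1 are brightest in the 22Rv1 ETV4AAA libraries, at 699.9 and 538 CPM and 832 and 699.5 CPM.

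The eGFP controls show what each line expresses before the constructs are compared. Between 22Rv1 and PC3 eGFP libraries, 9 of the 35 genes were higher and 19 lower in 22Rv1, and across all genes tested 70.9% passed, 34.9% higher and 36.0% lower. Under upper-quartile scaling, which moved the median of all genes by log2 0.34, 12 were higher and 18 lower, and 59.4% of all called genes were higher, against 49.2% under TMM scaling. The median log2 difference (22Rv1 minus PC3) of the 35 genes was -1.45, against 0.00 over all genes. Laminins stood lower as a group, with 1 of 12 higher and 9 lower in 22Rv1. These are bulk samples, so fewer expressing cells and less RNA per cell cannot be told apart.

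On the scale of CPM per kilobase of exon, which allows levels of different genes to be compared, ITGB1, the partner of most alpha chains, led in 22Rv1 eGFP libraries at 29.7 ± 3.63 (SD, n = 2), followed by LAMC1, the common gamma chain, at 23.8 ± 0.0295. ITGB5, a partner of ITGAV, stood at 14.7 ± 1.33 on that scale, LAMB2 at 9.21 ± 2.14 and ITGAV at 6.39 ± 0.455 in the same group. The ranges of ITGB5 and LAMB2 did not overlap, nor did those of ITGB1 and LAMC1. In PC3 eGFP libraries ITGA6 led at 41.3 ± 0.665 CPM per kilobase, ahead of ITGB1 at 31.1 ± 0.251 and LAMB1, a widespread beta chain, at 29.8 and 30.2. With the longest transcript in place of all exons that order turned, with ITGB1 at 49.6 and 49.1 and ITGA6 at 48.6 and 47.5 CPM per kilobase. ITGA3, another laminin receptor chain, and LAMC1 stood at 21.8 ± 1.13 and 20.2 ± 0.196 on the same scale.

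ITGA6, a laminin receptor chain, had 3.14 and 3.64 CPM in 22Rv1 eGFP libraries, against 273 and 267 CPM in PC3 eGFP libraries, a log2 difference of -6.31 ± 0.17 (edgeR adjusted p = 6.74e-11). Its hemidesmosomal partner ITGB4 had 1.31 and 0.638 CPM in 22Rv1, against 18.5 and 21.3 CPM in PC3 (log2 -4.35 ± 0.50). Both genes were low in each 22Rv1 control and high in each PC3 control.

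LAMA4, an alpha chain known from vessels and mesenchyme, had 0.369 and 0.412 CPM in 22Rv1 eGFP libraries, against 63.5 and 62.2 CPM in PC3 (log2 -7.32 ± 0.17, edgeR adjusted p = 2.67e-11). The epithelial chains LAMA3 and LAMB3 differed by log2 -5.16 ± 0.18 and -2.15 ± 0.30, and LAMB1 by -3.55 ± 0.14, all lower in 22Rv1. LAMA1 and LAMA2, alpha chains of embryonic epithelia and of muscle, had 1 and 3 counts over both 22Rv1 libraries, against 59 and 371 counts in PC3. The ratios, PC3 over 22Rv1, were 59.7 (95% interval 10.3 to 2400) and 125 (42.5 to 609). Such intervals cover counting error only, as they pool the counts of both libraries of a group and leave out the spread between them. The labels also name no molecular identifiers. LAMA5, the most widespread adult alpha chain, passed at an adjusted p of 0.0457 in edgeR (log2 -1.20 ± 0.49). Upper-quartile scaling (edgeR adjusted p = 0.0979), a filter of at least 1 CPM in 2 libraries (edgeR, 0.0689) and DESeq2 (0.0976) each lost the LAMA5 call. That call was lost without any one of 7 libraries, namely PC3 eGFP replicate 1 or 2, 22Rv1 eGFP replicate 2 or either 22Rv1 ETV4AAA or ETV4WT library, with log2 -1.32 to -0.84 and edgeR adjusted p 0.0593 to 0.272.

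Genes higher in 22Rv1 included ITGA1, a collagen receptor chain, at 19.7 and 21.6 CPM in 22Rv1 and 5.82 and 5.54 CPM in PC3 (log2 1.86 ± 0.17). ITGA9, which binds tenascin-C and osteopontin, had 2.61 and 2.16 CPM in 22Rv1, against 0.101 and 0.0860 CPM in PC3 (log2 4.63 ± 0.42). ITGAL, a leukocyte alpha chain, and ITGB7, a lymphocyte beta chain, had 76 and 65 counts over the 22Rv1 eGFP libraries and 1 count each in PC3. The ratios, 22Rv1 over PC3, were 75.1 (13.1 to 3010) and 64.3 (11.1 to 2580). ITGB7 shares 42.1% of its exon bases with ZNF740 on the opposite strand, and no source used here names the strand setting of the counting, so its reads are uncertain. The same holds for smaller exon overlaps on opposite strands. They include 6.46% of ITGA9 with ITGA9-AS1, 6.41% of ITGAE with HASPIN and 4.46% of ITGB2 with ITGB2-AS1. ITGAL shares 6.41% and 3.15% with antisense genes that had 7 and 294 counts over all libraries, against 206 for ITGAL. LAMA1 shares 10.3% with an antisense gene that had 0 counts.

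In 22Rv1, ETV4AAA went with higher counts of most integrin and laminin genes. Against eGFP, 20 of 35 rose and 2 fell, and across all genes tested 31.8% passed, 17.4% higher and 14.4% lower. The median log2 change was 0.79 over the 35 genes and -0.001 over all genes. By class, 9 of 15 integrin alpha genes rose and 2 fell, 5 of 8 integrin beta genes rose, and 6 of 12 laminin genes rose. LAMB3, LAMA4, ITGA6, ITGA10, ITGB3 and ITGB2 had the largest rises.

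LAMB3 (ENSG00000196878, GRCh38 chromosome 1 from 209614870 to 209652466, minus strand) encodes the beta chain of the hemidesmosomal laminin. It had 699.9 and 538 CPM in ETV4AAA libraries of 22Rv1, 9.32 and 10.7 CPM in ETV4WT libraries and 4.57 and 2.72 CPM in eGFP libraries. Both ETV4AAA values exceeded all other libraries of either line. The log2 change against eGFP was 7.41 ± 0.36 (edgeR adjusted p = 2.75e-08). On the scale of CPM per kilobase, LAMB3 averaged 132 ± 24.4 (SD, n = 2) in this group and ranked first of the 38 genes, ahead of LAMC1 at 91.1 ± 11.1.

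LAMA4 (ENSG00000112769, chromosome 6 from 112108760 to 112254939, minus strand) had 26.6 and 27.2 CPM in ETV4AAA, against 0.369 and 0.412 CPM in eGFP libraries of 22Rv1. The 2 libraries of each group lay close together, and the groups were far apart. The log2 change was 6.09 ± 0.17 (edgeR adjusted p = 5.17e-10). Its level in 22Rv1 ETV4AAA was below that of the PC3 controls. The summed level of 8 stromal markers was 16.9 to 18 CPM in ETV4AAA and 10.3 to 11.1 CPM in eGFP libraries of 22Rv1, with none at 0, and that of 8 markers of PC3 was 467 to 471 CPM in ETV4AAA and 141 to 150 CPM in eGFP libraries. Of the PC3 markers CD44 held most, with 430.5 and 426.9 CPM in ETV4AAA and 120 and 128.7 CPM in eGFP libraries of 22Rv1. Its level in 22Rv1 ETV4AAA exceeded the 401 and 395.1 CPM of PC3 eGFP libraries. VIM had 11.7 and 12.5 CPM in ETV4AAA and 6.24 and 7.23 CPM in eGFP libraries of 22Rv1. It stayed far below its 481 and 473 CPM in PC3 eGFP libraries. Of the stromal markers ACTA2 had 4.64 and 6.34 CPM in ETV4AAA and 1.95 and 1.94 CPM in eGFP libraries, and LUM had 0.621 and 1.38 CPM in ETV4AAA and 1.62 and 2.82 CPM in eGFP libraries. The part of these markers in the result was not tested.

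The common gamma chain LAMC1 (ENSG00000135862, chromosome 1 from 183023460 to 183145592, plus strand) had 832 and 699.5 CPM in ETV4AAA, against 199.8 and 200.2 CPM in eGFP libraries of 22Rv1 (log2 1.94 ± 0.14, edgeR adjusted p = 7.17e-07). The 2 ETV4AAA libraries stood above the other 4 libraries of 22Rv1.

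LAMA3, the alpha chain that joins LAMB3, did not pass. Its level was 3.22 and 2.25 CPM in ETV4AAA and 3.34 and 3.13 CPM in eGFP libraries of 22Rv1, and the groups overlapped. LAMA5 was at 40.0 and 23.3 CPM in ETV4AAA and 31.1 and 17.0 CPM in eGFP libraries, also overlapping. The beta chains LAMB2, known from kidney and neuromuscular junctions, and LAMB1 rose by log2 1.79 ± 0.34 and 0.85 ± 0.13. LAMB2 had 249 and 189 CPM in ETV4AAA, against 73.6 and 52.8 CPM in eGFP libraries. LAMA1 had 0 counts in both ETV4AAA libraries, and LAMA2, LAMB4 and LAMC3 did not pass.

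The RefSeq table of promoters (GRCh38.p14) holds windows of 300 bases, from 250 before to 50 after a gene's start, and 26 of the 38 genes matched it with 33 windows. Windows of the genes with the largest rises in 22Rv1, LAMB3, LAMA4 and ITGA6, and of LAMA3 are shown so that the LAMB3, LAMA4 and ITGA6 starts can be compared with a laminin gene whose change did not pass. Capitals mark matches on either strand to the ETS motif CCGGAAG, the PEA3 motif AGGAAG or the AP-1 motif TGANTCA. The table holds 3 windows for LAMB3 and 2 for ITGA6. The LAMA3 window lies inside that gene, which runs from 23689443 to 23956222 on chromosome 18 (plus strand). The start at 23689443 has no window, so for LAMA3 an inner start alone is compared. The LAMA4 window likewise lies inside its gene, whose minus-strand start is at 112254939. The LAMB3 window from 209651325 also lies inside its gene. The annotated LAMB3 start at 209652466 lies in both other LAMB3 windows. The LAMB3 windows shown are chr1:209652280-209652579 and chr1:209651325-209651624 (minus strand), the LAMA4 window is chr6:112254518-112254817 (minus strand), the ITGA6 window shown is chr2:172427336-172427635 (plus strand) and the LAMA3 window is chr18:23872770-23873069 (plus strand), each 5′ to 3′. The remaining LAMB3 window, chr1:209652376-209652675, and the other ITGA6 window, chr2:172427086-172427385, hold no match to these motifs and are not printed.
LAMB3, first window: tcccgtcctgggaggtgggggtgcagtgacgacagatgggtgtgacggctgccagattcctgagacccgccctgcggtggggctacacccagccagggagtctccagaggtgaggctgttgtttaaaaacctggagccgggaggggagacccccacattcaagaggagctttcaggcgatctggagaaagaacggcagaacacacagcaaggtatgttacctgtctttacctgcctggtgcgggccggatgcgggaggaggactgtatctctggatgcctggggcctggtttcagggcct
LAMB3, second window: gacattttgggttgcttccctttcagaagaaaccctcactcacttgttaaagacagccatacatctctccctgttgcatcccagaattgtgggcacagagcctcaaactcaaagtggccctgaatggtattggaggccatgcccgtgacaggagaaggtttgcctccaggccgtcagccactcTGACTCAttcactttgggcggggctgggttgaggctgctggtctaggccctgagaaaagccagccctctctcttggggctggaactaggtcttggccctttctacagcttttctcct
LAMA4: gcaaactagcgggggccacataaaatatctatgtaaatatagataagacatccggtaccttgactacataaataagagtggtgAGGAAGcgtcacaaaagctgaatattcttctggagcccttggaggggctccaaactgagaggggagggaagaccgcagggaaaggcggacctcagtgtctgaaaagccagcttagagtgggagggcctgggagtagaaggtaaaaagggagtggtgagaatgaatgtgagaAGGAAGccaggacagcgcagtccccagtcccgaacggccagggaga
ITGA6: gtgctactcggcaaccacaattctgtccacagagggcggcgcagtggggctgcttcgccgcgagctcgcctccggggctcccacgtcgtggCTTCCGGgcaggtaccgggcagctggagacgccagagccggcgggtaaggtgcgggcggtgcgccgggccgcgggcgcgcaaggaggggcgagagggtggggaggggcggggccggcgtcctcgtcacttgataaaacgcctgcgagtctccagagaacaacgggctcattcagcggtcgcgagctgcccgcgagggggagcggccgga
LAMA3: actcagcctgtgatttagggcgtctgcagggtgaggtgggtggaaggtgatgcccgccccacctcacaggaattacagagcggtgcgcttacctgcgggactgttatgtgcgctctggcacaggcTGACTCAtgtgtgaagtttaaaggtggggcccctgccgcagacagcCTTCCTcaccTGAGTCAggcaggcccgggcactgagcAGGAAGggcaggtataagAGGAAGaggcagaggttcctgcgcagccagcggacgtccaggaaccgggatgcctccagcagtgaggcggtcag

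The first LAMB3 window holds no match to the 3 motifs, and the second holds 1 AP-1 match. LAMA4 holds 2 PEA3 matches, the ITGA6 window shown holds 1 ETS match, and LAMA3 holds 3 PEA3 and 2 AP-1 matches. Over the 33 windows, 45.5% hold the PEA3 motif, 9.1% the ETS motif and 9.1% the AP-1 motif, against 33.6%, 10.3% and 7.7% of the 35116 windows in the table. The ETS and PEA3 motifs share their ending GGAAG but no match to one is a match to the other. A match describes the letters alone.

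**Figure D2:**
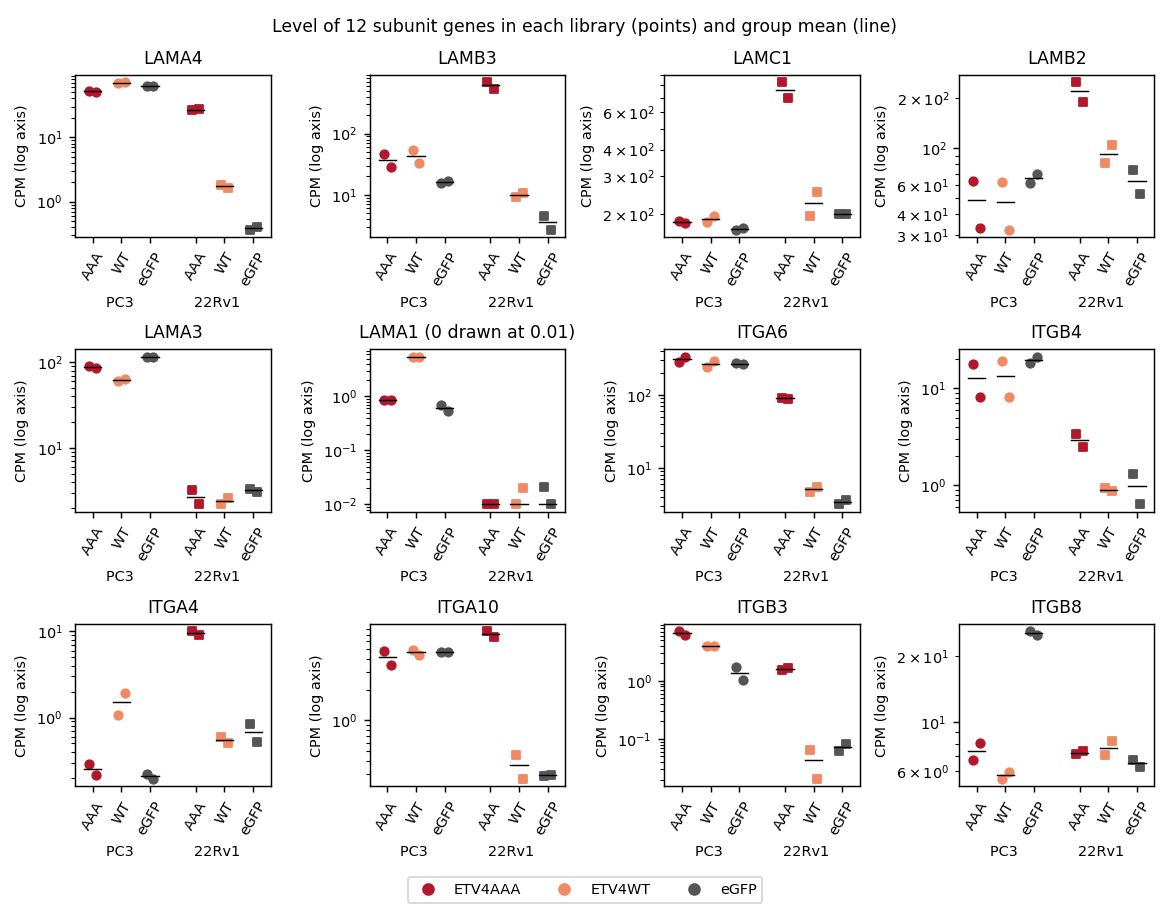
CPM (log axis) of 12 genes in each library, with PC3 as circles on the left and 22Rv1 as squares on the right of each panel, and a line at the group mean. LAMB3, LAMA4, LAMC1, ITGA6 and ITGA10 stand higher in 22Rv1 ETV4AAA than in the other 22Rv1 libraries, while LAMA3 does not.

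Among receptors of laminin in 22Rv1, ITGA6 (ENSG00000091409, chromosome 2 from 172427354 to 172506282, plus strand) had 92.5 and 88.9 CPM in ETV4AAA, against 3.14 and 3.64 CPM in eGFP libraries. The groups were far apart, and the PC3 controls were higher still. The log2 change was 4.74 ± 0.16 (edgeR adjusted p = 2.31e-09). ITGB4, its hemidesmosomal partner, had 3.42 and 2.47 CPM in ETV4AAA, against 1.31 and 0.638 CPM in eGFP libraries (log2 1.59 ± 0.49, edgeR adjusted p = 0.0273). ITGA7, a laminin receptor chain of muscle, rose by log2 1.19 ± 0.20, with 18.3 and 15.0 CPM in ETV4AAA and 8.21 and 6.42 CPM in eGFP libraries. ITGA3 stood at 47.5 and 37.9 CPM in ETV4AAA and 29.4 and 22.1 CPM in eGFP libraries and did not pass.

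Of the collagen receptor chains, ITGA10 had 7.52 and 6.55 CPM in ETV4AAA, against 0.287 and 0.288 CPM in eGFP libraries of 22Rv1 (log2 4.60 ± 0.27, edgeR adjusted p = 1.16e-07). Its ETV4AAA level also exceeded every PC3 library. ITGA2 and ITGA1 rose by log2 0.52 ± 0.13 and 0.45 ± 0.16, and ITGA11 had at most 0.222 CPM in any library. ITGB1, which pairs with all of these chains, had 338 and 362 CPM in ETV4AAA, against 163 and 194 CPM in eGFP libraries (log2 0.97 ± 0.14).

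ITGA5, the main fibronectin receptor chain, had 109 and 93.4 CPM in ETV4AAA, against 30.4 and 26.8 CPM in eGFP libraries of 22Rv1 (log2 1.82 ± 0.23). ITGA4, which binds fibronectin and VCAM1, had 10.0 and 9.06 CPM in ETV4AAA, against 0.841 and 0.515 CPM in eGFP libraries (log2 3.81 ± 0.29). ITGAV and ITGB5 rose by log2 0.53 ± 0.15 and 0.79 ± 0.18, while ITGB6 and ITGB8, which form receptors that release active TGF-beta, did not pass.

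ITGB3, the beta chain of platelet and vitronectin receptors, had 1.55 and 1.68 CPM in ETV4AAA, against 0.0615 and 0.0823 CPM in eGFP libraries of 22Rv1 (log2 4.44 ± 0.40, edgeR adjusted p = 4.8e-06). ITGB3 shares 51.6% of its exon bases with a read-through gene on the same strand, which had 0 counts. ITGA2B, the platelet partner of ITGB3, fell, with 0.976 and 0.925 CPM in ETV4AAA and 2.61 and 1.38 CPM in eGFP libraries (log2 -1.06 ± 0.32). Of 8 platelet and endothelial markers, 2 were at 0 in ETV4AAA libraries and 5 in eGFP libraries, and their summed level was 9.66 to 10.2 CPM in ETV4AAA and 6.19 to 6.42 CPM in eGFP libraries. The endothelial gene KDR had 4.42 and 4.82 CPM in ETV4AAA and 0 CPM in both eGFP libraries, and TIE1 had 3.04 and 2.37 CPM in ETV4AAA and 0.226 and 0.0618 CPM in eGFP libraries. The platelet gene GP1BA went the other way, with 2.02 and 1.59 CPM in ETV4AAA and 5.93 and 6.32 CPM in eGFP libraries. The platelet genes PPBP and GP9 were at 0 in all 12 libraries, and the part of these markers in the ITGB3 and ITGA2B results was not tested.

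ITGB2, the beta chain of leukocyte integrins, had 1.66 and 1.40 CPM in ETV4AAA, against 0.103 and 0.0412 CPM in eGFP libraries of 22Rv1 (log2 4.37 ± 0.52, edgeR adjusted p = 5.04e-05). Its partner ITGAL stood at 0.776 and 0.807 CPM in ETV4AAA and 1.03 and 0.535 CPM in eGFP libraries and did not pass. Of 10 leukocyte markers, 1 was at 0 in both ETV4AAA libraries and 2 in both eGFP libraries. PTPRC, which all leukocytes express, was at 0 and 0.0237 CPM in ETV4AAA and 0.0410 and 0 CPM in eGFP libraries, and TYROBP was at 0 in all 12. Their part in the ITGB2 result was not tested. ITGAE, an alpha chain that binds E-cadherin, fell by log2 0.70 ± 0.16, with 14.8 and 14.3 CPM in ETV4AAA and 23.8 and 23.8 CPM in eGFP libraries. ITGA8, a nephronectin receptor chain, had 33 and 9 counts in ETV4AAA, against 0 and 5 counts in eGFP libraries (log2 3.15 ± 0.79).

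Of these 22 calls, 16 held under all alternatives tried. ITGA1 was lost under both other scalings (edgeR adjusted p 0.0568 and 0.121), with no low-count filter (edgeR, 0.0852) and in DESeq2 (0.059). ITGAV was lost under upper-quartile scaling (edgeR adjusted p = 0.0579). Each of the other calls, and those of ITGA1 and ITGAV, was lost when a single library was left out. ITGA8 was lost without ETV4AAA replicate 1 (log2 1.99, edgeR adjusted p = 0.138) or eGFP replicate 1 (2.17, 0.0656). ITGA2B was lost without ETV4AAA replicate 1 or 2 or eGFP replicate 1 (log2 -1.12 to -0.56, edgeR adjusted p 0.102 to 0.27). ITGAV was lost without ETV4AAA replicate 1 or eGFP replicate 1 (0.0923 and 0.11), and ITGB5 without ETV4AAA replicate 1 or eGFP replicate 2 (0.0836 and 0.0804). ITGB4 was lost without eGFP replicate 2 or any ETV4AAA or ETV4WT library of 22Rv1 (log2 1.14 to 1.79, edgeR adjusted p 0.0568 to 0.22). ITGA1 was lost without any one of the 6 libraries of 22Rv1 or either PC3 eGFP library (0.0571 to 0.22).

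**Figure D3:**
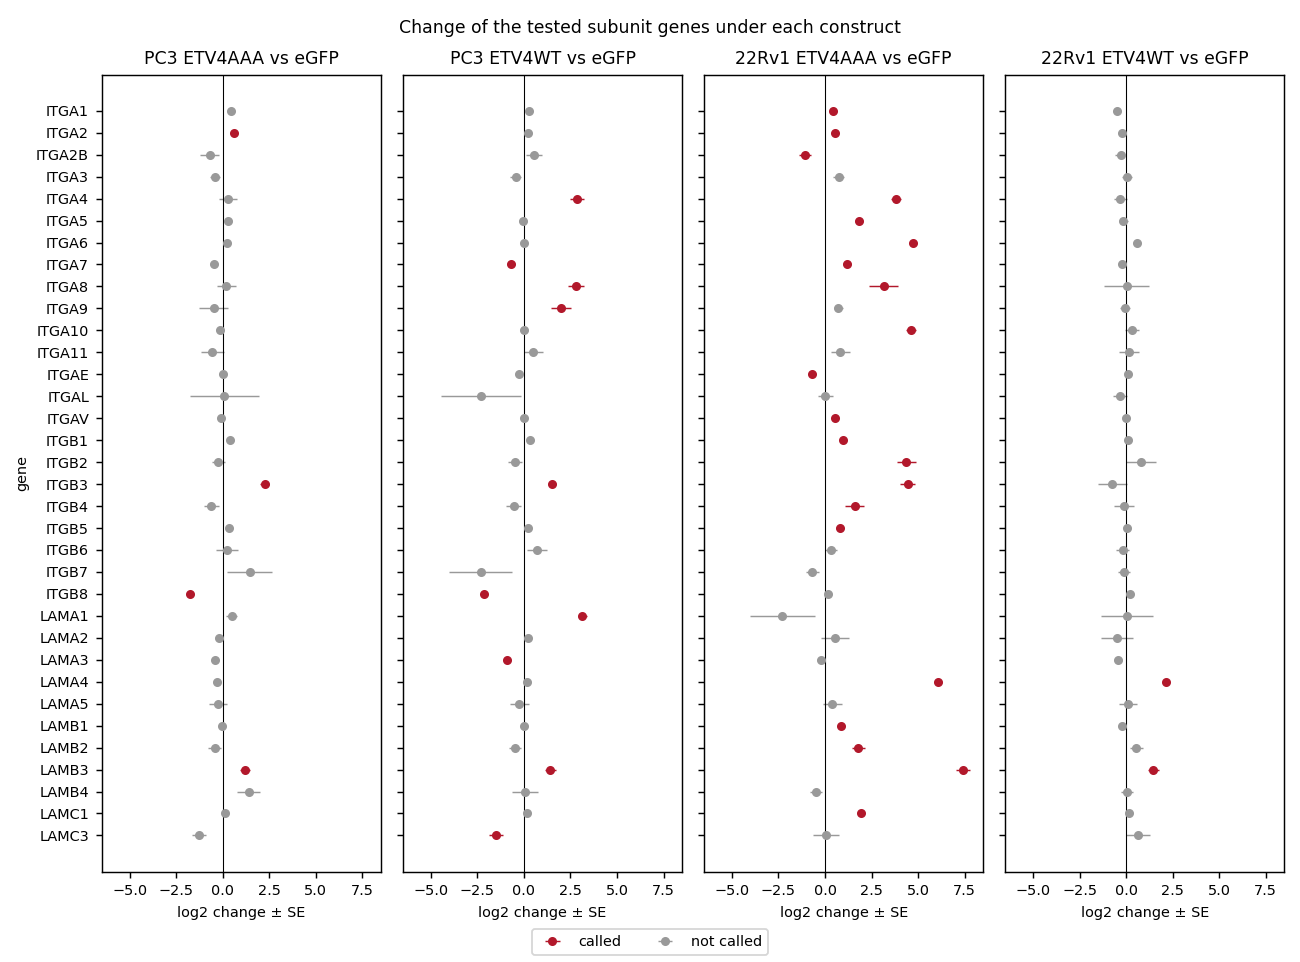
Log2 change ± SE (x axes) of the tested genes (rows) under ETV4AAA and ETV4WT against eGFP, in PC3 and 22Rv1, with called genes in red. LAMB3 and LAMA4 lie farthest to the right in 22Rv1 ETV4AAA, at 7.41 and 6.09, and are the 2 genes called in 22Rv1 ETV4WT.

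Under ETV4WT in 22Rv1, LAMA4 and LAMB3 were the members that passed. Against eGFP, 2 of 35 rose and 0 fell, and across all genes tested 1.50% passed, 1.06% higher and 0.439% lower. LAMA4 had 1.83 and 1.61 CPM in ETV4WT, against 0.369 and 0.412 CPM in eGFP libraries (log2 2.13 ± 0.18, edgeR adjusted p = 5.18e-05). LAMB3 had 9.32 and 10.7 CPM in ETV4WT, against 4.57 and 2.72 CPM in eGFP libraries (log2 1.46 ± 0.30, edgeR adjusted p = 0.0346). Both groups were separate for both genes. The LAMB3 call was lost, leaving 1, without any one of the 6 libraries of 22Rv1 or either PC3 eGFP library (log2 1.13 to 1.88, edgeR adjusted p 0.057 to 0.342), whereas LAMA4 held under all alternatives.

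The direct test of the mutation in 22Rv1 sets ETV4AAA against ETV4WT. Here 21 of 35 genes rose and 1 fell, and across all genes tested 23.5% passed, 13.9% higher and 9.62% lower. The median log2 change was 0.90 over the 35 genes and -0.03 over all genes. LAMB3 differed by log2 5.95 ± 0.34, ITGB3 by 5.18 ± 0.44, ITGA10 by 4.28 ± 0.26, ITGA6 by 4.17 ± 0.16, ITGA4 by 4.11 ± 0.30 and LAMA4 by 3.96 ± 0.14, all higher in ETV4AAA. LAMC1 differed by log2 1.78 ± 0.14 (edgeR adjusted p = 1.89e-06). ITGAE, with 14.8 and 14.3 CPM in ETV4AAA and 28.5 and 22.4 CPM in ETV4WT libraries, fell by log2 0.80 ± 0.16. ITGA9 was called here alone among the 22Rv1 comparisons (log2 0.80 ± 0.26, edgeR adjusted p = 0.0431), and its call was lost without any one of the 6 libraries of 22Rv1 or either PC3 eGFP library (0.055 to 0.229). DESeq2 did not call ITGA9 between these constructs (adjusted p = 0.0764). Against eGFP ITGA9 had log2 0.72 ± 0.26 with an edgeR adjusted p of 0.0528.

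Another 5 calls of that comparison were lost without single libraries of 22Rv1. Without ETV4AAA replicate 1 or either ETV4WT library, ITGA8 (edgeR adjusted p 0.0751 to 0.182), ITGAV (0.0619 to 0.0982) and LAMB2 (0.0753 to 0.169) were lost. ITGB4 was lost without any ETV4AAA or ETV4WT library (0.0637 to 0.181), and ITGB5 without replicate 1 of either construct (0.131 and 0.136). Without ETV4AAA replicate 1 the log2 value of ITGA8 was 1.96.

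Read as shares of the laminin alpha or beta chains, on the scale of CPM per kilobase, the laminin genes of 22Rv1 changed their order under ETV4AAA. LAMB3 held 78.3% and 78.3% of the beta chain total in ETV4AAA, against 6.75% and 5.28% in eGFP libraries. LAMB2, which led in eGFP libraries at 74.2% and 70.1%, held 19% and 18.8% in ETV4AAA. ETV4WT libraries kept LAMB2 in front, at 73.9% and 75.8%, with LAMB3 at 12.3% and 11.5%.

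Among alpha chains LAMA4 held 43.1% and 56.8% in ETV4AAA, against 1.31% and 2.47% in eGFP libraries of 22Rv1. LAMA5 held 52.7% and 39.4% in ETV4AAA, against 89.2% and 82.5% in eGFP libraries. LAMA5 led in ETV4AAA replicate 1 and LAMA4 in replicate 2, so the leading alpha chain of that group is not settled. With the longest transcript in place of all exons, LAMB3 held 76% and 76% of the beta total in ETV4AAA libraries, and LAMA4 held 51.5% and 64.9% of the alpha total. These shares describe transcripts, and a share can fall while its gene rises, as for LAMB2.

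**Figure D4:**
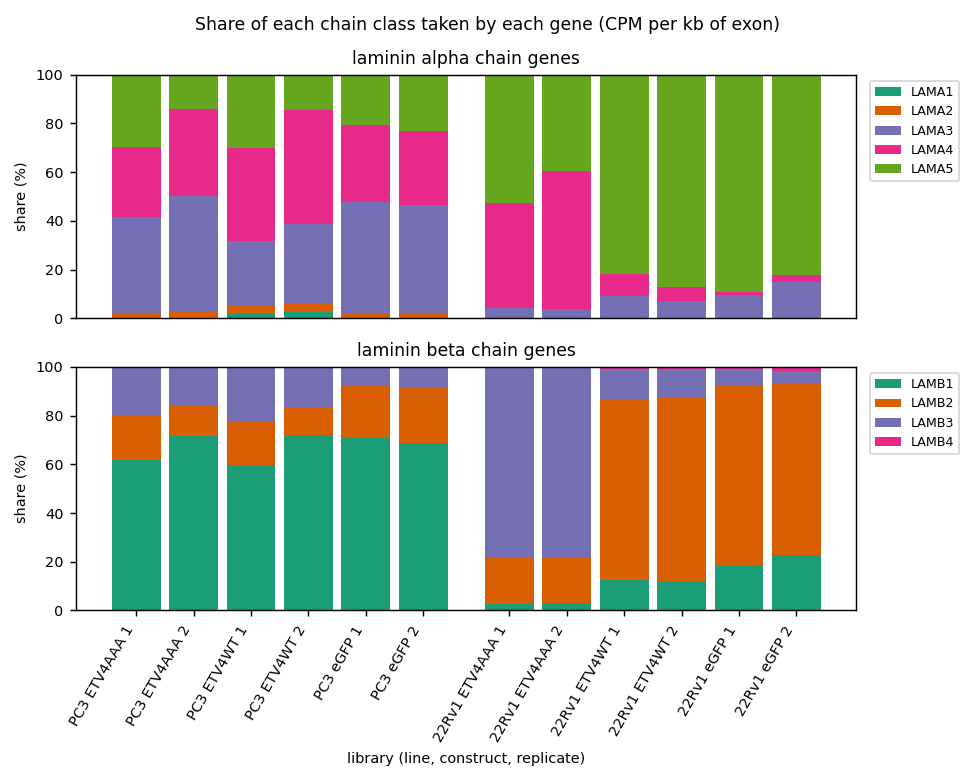
Share (%) of the summed CPM per kilobase of the laminin alpha chains and of the beta chains taken by each gene, 1 bar per library. In 22Rv1 ETV4AAA the LAMB3 share of the beta chains is 78.3% in both libraries, against 6.75% and 5.28% in eGFP.

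In PC3 the same comparisons were made. Libraries labelled ETV4AAA differed from eGFP in 4 members, and 3 of 35 genes rose and 1 fell, and across all genes tested 3.69% passed, 2.45% higher and 1.24% lower. ITGB3 (ENSG00000259207, chromosome 17 from 47253846 to 47311816, plus strand) had 7.11 and 6.17 CPM in libraries labelled ETV4AAA, against 1.73 and 1.03 CPM in eGFP libraries (log2 2.26 ± 0.23, edgeR adjusted p = 0.000311). ITGB8 (ENSG00000105855, chromosome 7 from 20330702 to 20415754, plus strand) had 6.72 and 8.06 CPM in libraries labelled ETV4AAA, against 25.9 and 24.9 CPM in eGFP libraries (log2 -1.78 ± 0.16, edgeR adjusted p = 9.26e-05). Both replicates of both constructs were on the same side for each gene. The summed level of the 8 platelet and endothelial markers was 24.2 to 27.2 CPM in libraries labelled ETV4AAA and 14.7 to 15.6 CPM in eGFP libraries of PC3, most of it from the endothelial gene PECAM1 at 20.2 and 22.4 CPM in libraries labelled ETV4AAA and 13.7 and 12.4 CPM in eGFP libraries, and its part in the ITGB3 result was not tested.

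LAMB3 rose in PC3 libraries labelled ETV4AAA as well, with 45.9 and 28.7 CPM in libraries labelled ETV4AAA, against 15.7 and 16.6 CPM in eGFP libraries (log2 1.21 ± 0.28, edgeR adjusted p = 0.0347). The collagen receptor chain ITGA2 had 144 and 163 CPM in libraries labelled ETV4AAA, against 102 and 99.9 CPM in eGFP libraries (log2 0.60 ± 0.13, edgeR adjusted p = 0.0238). Without PC3 eGFP replicate 1 or 2 both of these calls were lost and 2 remained called. ITGA2 was also lost without ETV4AAA replicate 2 (log2 0.48, edgeR adjusted p = 0.169), and LAMB3 without ETV4AAA replicate 1 of PC3 (0.84, 0.0708) or any ETV4AAA or ETV4WT library of 22Rv1 (0.0793 to 0.0936). Without both replicate 2 construct libraries of PC3, 3 rose and 1 fell.

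In the libraries labelled ETV4WT of PC3, 6 of 35 genes rose and 4 fell against eGFP, and across all genes tested 23.4% passed, 12.7% higher and 10.7% lower. Under upper-quartile scaling, which moved the median of all genes by log2 0.15, 7 rose and 3 fell, and 69.2% of all called genes were higher, against 54.4% under TMM scaling. LAMA1 (ENSG00000101680, chromosome 18 from 6941744 to 7117814, minus strand) had 5.35 and 5.43 CPM in libraries labelled ETV4WT, against 0.684 and 0.537 CPM in eGFP libraries (log2 3.13 ± 0.25, edgeR adjusted p = 9.79e-06). ITGA4 (ENSG00000115232, chromosome 2 from 181457202 to 181536187, plus strand) had 1.08 and 1.93 CPM in libraries labelled ETV4WT, against 0.221 and 0.193 CPM in eGFP libraries (log2 2.83 ± 0.37). ITGA8 had 2.53 and 3.28 CPM in libraries labelled ETV4WT, against 0.403 and 0.430 CPM in eGFP libraries (log2 2.79 ± 0.43). For these 3 genes both ETV4WT libraries were well above the other 4 libraries of PC3.

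ITGA9, ITGB3 and LAMB3 rose by log2 1.99 ± 0.54, 1.51 ± 0.23 and 1.43 ± 0.28 in PC3 libraries labelled ETV4WT. ITGB8 had 5.52 and 5.97 CPM in libraries labelled ETV4WT, against 25.9 and 24.9 CPM in eGFP libraries, and its log2 change was -2.15 ± 0.16 (edgeR adjusted p = 4.25e-06). LAMA3 had 61.1 and 63.9 CPM in libraries labelled ETV4WT, against 115 and 116 CPM in eGFP libraries (log2 -0.89 ± 0.15). The gamma chain LAMC3 and the receptor chain ITGA7 fell by log2 1.52 ± 0.37 and 0.69 ± 0.23. LAMB3 rose while its partner LAMA3 fell.

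Of those 10 calls in PC3, 7 held under all alternatives tried. The ITGA7 call was lost under both other scalings and both other filters (edgeR adjusted p 0.0624 to 0.103) and in DESeq2 (adjusted p = 0.0686). With each line on its own, ITGA7, ITGA9 and LAMC3 were lost (edgeR adjusted p 0.113, 0.0587 and 0.0603). ITGA7 was lost without any one of 10 libraries, all except ETV4AAA and ETV4WT replicate 1 of PC3 (log2 -0.71 to -0.45, edgeR adjusted p 0.0537 to 0.305). ITGA9 was lost without eGFP replicate 1 or 2 or ETV4WT replicate 2 (1.11 to 2.11, 0.087 to 0.263), and LAMC3 without eGFP replicate 2 or ETV4WT replicate 2 (-1.42 and -1.09, 0.0766 and 0.0982). Without both replicate 2 construct libraries 6 rose and 3 fell.

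Between the 2 constructs in PC3, 1 of 35 genes was higher and 5 were lower in ETV4AAA than in ETV4WT, and across all genes tested 11.0% passed, 3.65% higher and 7.32% lower. LAMA1 had 0.863 and 0.837 CPM in libraries labelled ETV4AAA, against 5.35 and 5.43 CPM in libraries labelled ETV4WT (log2 -2.66 ± 0.24, edgeR adjusted p = 4.33e-05). ITGA8, ITGA4 and ITGA9 differed by log2 -2.60 ± 0.43, -2.55 ± 0.36 and -2.47 ± 0.59. LAMA4 was lower by a smaller amount (log2 -0.46 ± 0.12), and ITGB3 was higher in ETV4AAA (log2 0.75 ± 0.21). DESeq2 called neither LAMA4 (adjusted p = 0.0519) nor ITGB3 (0.0623). LAMA4 was lost with no low-count filter (edgeR adjusted p = 0.0615), and ITGB3 with the filter of 1 CPM in 2 libraries (edgeR, 0.06). With each line on its own LAMA4, ITGA9 and ITGB3 were lost (edgeR adjusted p 0.0542, 0.0708 and 0.125). LAMA1, ITGA4 and ITGA8 alone held under all alternatives, and they were the 3 left called without both replicate 2 construct libraries and without ETV4AAA replicate 1 or 2. Under upper-quartile scaling, which moved the median of all genes by log2 -0.11, ITGB3 was no longer called, leaving 0 higher and 5 lower, and 17.0% of all called genes were higher, against 33.3% under TMM scaling. Its call was also lost without any library except the 2 PC3 eGFP libraries (log2 0.64 to 0.81, edgeR adjusted p 0.0657 to 0.178), that of LAMA4 without any PC3 library (0.0653 to 0.116), and that of ITGA9 without either ETV4AAA library or ETV4WT replicate 2 (0.0651 to 0.148).

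The replicates of the PC3 construct groups differed for several laminin and receptor genes. LAMA5 had 66.7 and 25.4 CPM in libraries labelled ETV4AAA, 66.5 and 27.3 CPM in libraries labelled ETV4WT and 50.9 and 59.8 CPM in eGFP libraries. ITGB4 had 17.8 and 8.13 CPM in libraries labelled ETV4AAA, 19.0 and 8.16 CPM in libraries labelled ETV4WT and 18.5 and 21.3 CPM in eGFP libraries. LAMB2 had 63.8 and 33.3 CPM in libraries labelled ETV4AAA, 62.4 and 32.4 CPM in libraries labelled ETV4WT and 61.8 and 70.0 CPM in eGFP libraries. In each case replicate 1 of a construct resembled the controls more closely than replicate 2, and none of the 3 genes passed in PC3. ITGA3, LAMC3 and LAMB3 were also higher in replicate 1, by log2 0.83, 0.94 and 0.67 in ETV4AAA and 0.67, 0.78 and 0.67 in ETV4WT. ETV4 itself differed in the same direction, and the part of this in the results was not tested.

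The effect of each construct was also compared between the lines, as its log2 change in 22Rv1 minus that in PC3. For ETV4AAA against eGFP, 15 of 35 differences passed and all 15 were higher in 22Rv1, while across all genes tested 16.2% passed, 9.48% higher and 6.73% lower. The median difference was log2 1.20 over the 35 genes and 0.04 over all genes. The largest were LAMA4 (log2 6.38 ± 0.21), LAMB3 (6.20 ± 0.43), ITGA10 (4.75 ± 0.34), ITGB2 (4.60 ± 0.66) and ITGA6 (4.53 ± 0.21). LAMB3 rose in both lines. For ITGB8 the difference (1.94 ± 0.22) came with a fall in PC3 and with 7.19 and 7.38 CPM in ETV4AAA and 6.77 and 6.26 CPM in eGFP libraries of 22Rv1.

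For ETV4WT against eGFP, 5 differences passed, 2 higher and 3 lower in 22Rv1, and across all genes tested 12.5% passed, 4.92% higher and 7.57% lower. Upper-quartile scaling moved the median of all genes by log2 -0.19, and 24.4% of all called genes were then higher, against 39.4% under TMM scaling. LAMA4 (log2 1.96 ± 0.21) and ITGB8 (2.38 ± 0.22) were higher, and ITGA4 (-3.14 ± 0.52), ITGA9 (-2.07 ± 0.60) and ITGA1 (-0.78 ± 0.23) lower. ITGA1 and ITGA9 were lost without any of 9 libraries, all except the ETV4AAA libraries and ETV4WT replicate 1 of PC3, which left 3 calls (edgeR adjusted p 0.0539 to 0.275). Without ETV4WT replicate 1 of PC3 there were 8 calls. For ETV4AAA against ETV4WT, 17 differences were higher and 1 lower in 22Rv1, and across all genes tested 21.0% passed, 13.0% higher and 7.94% lower. ITGA4 showed the largest, log2 6.66 ± 0.46, with ETV4AAA libraries above ETV4WT libraries in 22Rv1 and below them in PC3.

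**Figure D5:**
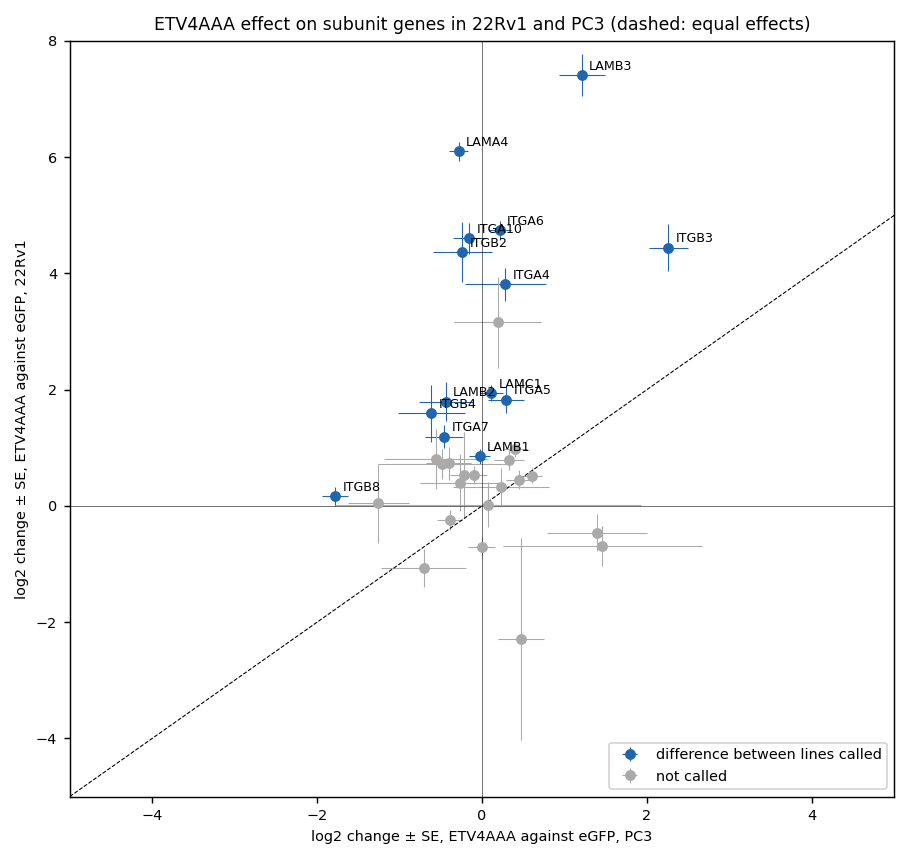
Log2 change ± SE under ETV4AAA against eGFP in 22Rv1 (y axis) and PC3 (x axis) for the tested genes, with the genes whose 2 changes differ in blue and a dashed line at equal changes. LAMA4 lies at 6.09 in 22Rv1 and at -0.28 in PC3, and all blue genes lie above the line.

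Other genes of the same adhesion system were read from 4 lists, each compared with eGFP. Of 12 basement membrane partners of laminins, 6 rose and 3 fell in 22Rv1 ETV4AAA, against 17.4% of all genes called higher and 14.4% lower, with the netrin NTN4 at log2 1.34 ± 0.19 and the nidogen NID2, which links laminin to collagen, at 1.36 ± 0.26. Their median was log2 0.99, against -0.001 over all genes. In the libraries labelled ETV4AAA of PC3, 0 of 12 changed, against 3.69% of all genes called. There 2 of 12 had an unadjusted p under 0.05 in edgeR, as did 3748 of the 23238 genes tested. In PC3 libraries labelled ETV4WT 2 rose, NID2 by 1.88 ± 0.24 and COL4A3 by 1.04 ± 0.27, against 23.4% of all genes called. In 22Rv1 ETV4WT 0 of 12 changed, against 1.50% of all genes called. An unadjusted p under 0.05 in edgeR was found for 1 of 12, and for 3374 of the 23238 genes tested.

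Of 16 tested integrin ligands other than laminins, 12 rose and 2 fell in 22Rv1 ETV4AAA, where 17.4% of all genes were called higher and 14.4% lower, with a median log2 change of 1.47. FN1, which encodes fibronectin, had 328.6 and 286.5 CPM in ETV4AAA, against 26.5 and 25.3 CPM in eGFP libraries (log2 3.57 ± 0.14). SPP1, osteopontin, differed by log2 4.64 ± 0.42, the leukocyte ligand ICAM1 by 4.43 ± 0.27 and EDIL3, a ligand of ITGAV receptors, by 2.63 ± 0.15. The level of SPP1 was low, at 1.80 and 1.92 CPM in ETV4AAA and 0.103 and 0.0412 CPM in eGFP libraries of 22Rv1. FN1 was the 1 ligand that rose in 22Rv1 ETV4WT (log2 1.94 ± 0.13), where 1.50% of all genes were called. In PC3, 1 rose and 3 fell under ETV4AAA, with FN1 at -0.59 ± 0.13, and 3 rose and 1 fell under ETV4WT, with FBLN5, an elastic fibre protein, at 2.62 ± 0.43, against 3.69% and 23.4% of all genes called.

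Of 8 hemidesmosome partners and other laminin receptors, 3 rose and 1 fell in 22Rv1 ETV4AAA, against 31.8% of all genes called, and the list's median was -0.07. Among them were the hemidesmosomal collagen COL17A1 at log2 2.32 ± 0.46 and the laminin receptor BCAM at 2.13 ± 0.40. The level of COL17A1 was low, at 0.4437 and 0.7119 CPM in ETV4AAA and 0.1026 and 0.1235 CPM in eGFP libraries of 22Rv1. COL17A1 rose in PC3 too, by 3.22 ± 0.28 under ETV4AAA, where 2 rose and 0 fell against 3.69% of all genes called, and by 2.42 ± 0.28 under ETV4WT, where 2 rose and 2 fell against 23.4%. In 22Rv1 ETV4WT 0 of 8 changed, against 1.50% of all genes called. An unadjusted p under 0.05 in edgeR was found for 1 of 8, and for 3374 of the 23238 genes tested. Of 24 adaptors that join integrins to the cytoskeleton, 5 rose and 7 fell in 22Rv1 ETV4AAA, against 17.4% of all genes called higher and 14.4% lower, with zyxin (ZYX) at 2.92 ± 0.38, paxillin (PXN) at 1.06 ± 0.25 and the tensin TNS3 at -1.44 ± 0.20, and the list's median was -0.11. The adaptors split in PC3 as well, with 3 rises and 0 falls under ETV4AAA, against 3.69% of all genes called, and 3 rises and 5 falls under ETV4WT, against 23.4%. In 22Rv1 ETV4WT 0 of 24 changed, against 1.50% of all genes called, and 1 of 24 had an unadjusted p under 0.05 in edgeR.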

How the data were processed

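The authors deposited 1 table of raw read counts per gene for the 12 libraries. Reads were aligned with STAR 2.5.3a to GRCh38 and checked with FastQC 0.11.9, per the submitters' processing notes. No source used here names the counting program, its strand setting or its annotation.

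The counts were tested as deposited with edgeR 4.0.16 in R 4.3.3 (filterByExpr, TMM scaling, quasi-likelihood test over all 12 libraries and 6 groups, Benjamini-Hochberg adjustment over 23238 genes, threshold 0.05). The fit had 6 residual degrees of freedom and a biological coefficient of variation of 0.149. The code was run on simulated counts that held no difference between the lines, which does not test how well the fit suits these data. CPM use the scaled library sizes. CPM per kilobase divide by all exon bases in GENCODE, which matched 99.55% of gene IDs. Alternatives were other scalings and filters, DESeq2 1.42.0, each line on its own, a block by replicate number, leaving out each library, and the longest transcript as length. Leaving out both replicate 2 construct libraries of PC3 was chosen after seeing the data. All members could be named, with changes for those called, and in each other list up to 5 called genes per comparison with the lowest adjusted p. Values of 1 member and of some marker genes are not reported here, though counts and medians include them. The members and lists were chosen with earlier results of these data known.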

Additional observations from a re-analysis of the deposited data

Results flagged for a closer look

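The changes in 22Rv1 and PC3 differed for the genes below in edgeR's quasi-likelihood test of the difference, and the values are log2 changes in 22Rv1 minus those in PC3. For ETV4WT against eGFP they were ITGA1 at -0.78, ITGA4 at -3.14, ITGA9 at -2.07, ITGB8 at 2.38 and LAMA4 at 1.96.

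For ETV4AAA against eGFP the laminin genes were LAMA4 at 6.38, LAMB3 at 6.20, LAMB2 at 2.23, LAMC1 at 1.82 and LAMB1 at 0.88. The integrin alpha genes were ITGA10 at 4.75, ITGA6 at 4.53, ITGA4 at 3.52, ITGA7 at 1.65 and ITGA5 at 1.53. The integrin beta genes were ITGB2 at 4.60, ITGB4 at 2.21, ITGB3 at 2.18 and ITGB8 at 1.94. ITGB3 was no longer called without 22Rv1 eGFP replicate 1 or 2 (edgeR adjusted p 0.0759 and 0.0558), and LAMB2 without 22Rv1 eGFP replicate 2 (0.0501). ITGB4 was lost without 22Rv1 eGFP replicate 2, PC3 ETV4AAA replicate 2, either PC3 eGFP library or any construct library of 22Rv1 (0.0651 to 0.176).

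For ETV4AAA against ETV4WT the laminin genes were LAMB3 at 6.17, LAMA4 at 4.42, LAMC1 at 1.82 and LAMB1 at 1.11. The integrin alpha genes were ITGA4 at 6.66, ITGA8 at 5.72, ITGA10 at 4.44, ITGA6 at 3.97, ITGA9 at 3.27, ITGA5 at 1.62, ITGA7 at 1.16, ITGA1 at 0.78, ITGAV at 0.67 and ITGAE at -1.07. The integrin beta genes were ITGB3 at 4.43, ITGB2 at 3.33 and ITGB1 at 0.80. The ITGAV call was lost under RLE scaling (edgeR adjusted p = 0.062) and in DESeq2 (0.0724). ITGA1 was lost without PC3 ETV4AAA replicate 1, PC3 ETV4WT replicate 2, either PC3 eGFP library, 22Rv1 ETV4AAA replicate 2 or 22Rv1 ETV4WT replicate 1 (edgeR adjusted p 0.0583 to 0.11). ITGA7 was lost without PC3 ETV4AAA replicate 2, PC3 ETV4WT replicate 1, 22Rv1 ETV4AAA replicate 1 or either 22Rv1 ETV4WT library (0.0592 to 0.0897). ITGAV was lost without PC3 ETV4AAA replicate 1, PC3 ETV4WT replicate 2, either PC3 eGFP library or any construct library of 22Rv1 (0.0584 to 0.166).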

How the results depend on the processing

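No called change reversed its direction under any alternative run. Leaving out 1 library in turn, the number of genes called ranged from 7 to 13 for PC3 ETV4WT against eGFP, 2 to 4 for PC3 ETV4AAA against eGFP, 3 to 6 for PC3 ETV4AAA against ETV4WT, 1 to 2 for 22Rv1 ETV4WT against eGFP, 16 to 24 for 22Rv1 ETV4AAA against eGFP, 16 to 23 for 22Rv1 ETV4AAA against ETV4WT and 27 to 29 between the eGFP controls. For the differences between lines it ranged from 3 to 8 for ETV4WT, 14 to 19 for ETV4AAA and 15 to 20 for ETV4AAA against ETV4WT. With each line on its own, PC3 ETV4AAA against eGFP had 2 calls. Without both replicate 2 construct libraries of PC3, PC3 ETV4AAA against ETV4WT had 3. With no filter on low counts, 22Rv1 ETV4WT against eGFP had 4 calls and the ETV4WT difference between lines had 8. The cause was not tested.

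Same-numbered libraries did not deviate together throughout (r from -0.366 to 0.816 over the 6 pairs of groups within a line), so the numbers were not taken to pair them. The r of 0.816 was that of PC3 ETV4AAA with PC3 ETV4WT, so those groups did deviate together. The other positive r was 0.495, for 22Rv1 ETV4AAA with 22Rv1 eGFP. With a replicate block within line the counts were 10, 5 and 6 in PC3 (ETV4WT against eGFP, ETV4AAA against eGFP, ETV4AAA against ETV4WT), 2, 24 and 23 for the same comparisons in 22Rv1, 28 between controls, and 6, 18 and 20 for the differences between lines, and no call was lost. With 2 libraries a group, genes with few counts in a line, such as ITGAL and ITGB7 in PC3 and LAMA1 in 22Rv1, are the least precise. ITGA8 and ITGB2 also had few counts in 22Rv1 eGFP libraries.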
